A study of Mus musculus with 4 samples.

Results

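The MHC class II genes and their transactivator Ciita were followed across the B cells, dendritic cells, phagocytes and endothelial cells of mouse liver. The genes were chosen by symbol, as chains, chaperones and the transactivator of class II, and all 10 were found among the 31053 genes of the files. They were read as raw UMI counts, a UMI being 1 captured RNA molecule, in 4 single-cell libraries prepared with the 5-prime gene expression chemistry of 10x Genomics. Each library was a group of its own: premalignant liver and early hepatocellular carcinoma (eHCC), each labelled Mef2d KO or Mef2d WT. The 4 groups are called here premalignant KO, premalignant WT, eHCC KO and eHCC WT, and values of all 4 libraries are given in that order. Mef2d encodes a transcription factor of the MEF2 family. The labels give the genotype as KO or WT and the tissue as premalignant liver or eHCC tissue. Neither the labels nor the protocols give the strain, age or sex of the mice, the tumour model, the promoter or cell type behind the deletion, or how many animals went into a library.

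With 1 library in each group there is no replicate check of any difference, and what animals or preparations add to it is not covered. Intervals are 95% intervals that cover counting error only, and no p-value is given. Levels are counts per 1000000 UMIs of a cell class in a library (CPM). The 5-prime protocol counts 1 tag per molecule, so CPM was compared between genes without a length correction. Ratios are log2 of CPM between libraries with at least 50 cells of the class in both, for genes with at least 20 UMIs in both together, and a ratio past 1.5-fold either way was counted as past the threshold. Fewer molecules per cell and fewer expressing cells cannot be told apart in a summed level.

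The libraries held 9672, 14167, 10686 and 11022 barcodes, of which 8772, 12786, 8382 and 10064 were kept, with median depths of 4303, 4748, 7268 and 8610 UMIs per cell. Pairs of libraries shared 23 to 45 barcodes. Mef2d RNA was higher in both libraries labelled KO than in both labelled WT: over all kept cells its level was 101, 71.3, 96.4 and 61.3 CPM. That is the opposite of a loss of its RNA. In B cells Mef2d stood at 169, 97.9, 127 and 111 CPM and in phagocytes at 88.9, 81.7, 96.4 and 56.8 CPM. The counted tags need not lie in the deleted part, so these values do not check the deletion, and every direction below is one between libraries as labelled. The eHCC KO library stands apart in its erythroid RNA, and its doublets were removed by a fixed share, because the doublet caller's own threshold marked 0.033% of its cells. Each cell class stands for clusters that carry its markers (B-like, T-like and so on), and is written without the suffix from here on. Class II genes were kept out of the clustering, so none of the 10 genes defined a class.

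MHC class II molecules present peptides from endosomes to CD4 T cells. H2-Aa and H2-Ab1 encode the alpha and beta chains of I-A, and H2-Eb1 encodes the beta chain of I-E. Cd74 encodes the invariant chain, which blocks the peptide groove in the endoplasmic reticulum and sorts the dimer to endosomes. H2-DMa with H2-DMb1 or H2-DMb2 forms H2-M, which exchanges the remnant of the invariant chain for peptide, and H2-Oa with H2-Ob forms H2-O, an inhibitor of H2-M known from B cells. Ciita is the coactivator of all these genes. It does not bind DNA itself and is recruited by the RFX, CREB and NF-Y factors that sit on the X and Y boxes of class II promoters. Dendritic cells, B cells and macrophages carry class II as professional antigen-presenting cells, and endothelial cells can gain it under interferon-gamma.

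Of the 10 genes, 8 lie on chromosome 17 of GRCm38 in the MHC, and Cd74 and Ciita lie on other chromosomes. In the MHC the order of start coordinates was H2-Oa (34092340 to 34095234), H2-DMa (34119541 to 34139101), H2-DMb2 (34143307 to 34151555), H2-DMb1 (34153072 to 34160230), H2-Ob (34238903 to 34254414), H2-Ab1 (34257689 to 34269419), H2-Aa (34282744 to 34287823, on the minus strand) and H2-Eb1 (34305867 to 34316674). H2-DMb1 and H2-DMb2 are close paralogs, so their reads could be split or exchanged by the counting and their separate values are uncertain. RefSeq promoter windows of GRCm38.p6, from 250 bases before to 50 after a start, were found for 7 of the 10 genes, with none for H2-Ab1, Cd74 and Ciita. The stretches that hold the boxes are shown because these are the feature through which Ciita acts on class II genes. In the first 4, capitals mark the letters GCAAC of the X box and ATTGG of the Y box, which lay 25 to 28 bases apart. The H2-DMb2 stretch holds the Y letters without the exact letters GCAAC. An X box with other letters would be missed by this search.
H2-Aa, chr17:34287867-34287912, minus strand: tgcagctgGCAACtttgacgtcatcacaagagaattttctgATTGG
H2-Eb1, chr17:34305768-34305812, plus strand: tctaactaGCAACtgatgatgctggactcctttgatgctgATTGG
H2-Oa, chr17:34092295-34092340, plus strand: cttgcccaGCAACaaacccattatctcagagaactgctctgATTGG
H2-Ob, chr17:34238810-34238852, plus strand: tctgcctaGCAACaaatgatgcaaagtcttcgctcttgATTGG
H2-DMb2, chr17:34145117-34145163, plus strand: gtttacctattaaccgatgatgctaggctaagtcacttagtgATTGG

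The X letters began 81, 91, 76 and 87 bases before the start in H2-Aa, H2-Eb1, H2-Oa and H2-Ob, and the Y letters 48, 59, 43 and 57 bases before it. The pair at this spacing, searched as GCAAC and ATTGG on either strand, was in 0.201% of all 32851 windows. ATTGG alone was in 37.4% and GCAAC alone in 35.2% of them, so either motif by itself is common. H2-DMb2 had the Y letters 90 bases before its start without GCAAC at that distance. H2-DMb1 and 1 of the starts of H2-DMa had the Y letters only. A match describes these letters in this window and is not evidence that a factor binds there. The lack of a match is not evidence that an X box is missing.

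Class II RNA was highest in type 1 conventional dendritic cells and, in an order that changed between libraries, in type 2 conventional dendritic cells and macrophages, then in B cells. It was lower in plasmacytoid dendritic cells and near the level of T cells in endothelium. Summed over H2-Aa, H2-Ab1, H2-Eb1 and Cd74, the level in type 1 conventional dendritic cells was 38440, 43604, 37451 and 38804 CPM, from 32, 43, 20 and 32 cells. In type 2 conventional dendritic cells the summed level was 30803, 34984, 27137 and 40551 CPM, from 33, 25, 44 and 76 cells. B cells had a summed level of 22052, 24707, 25234 and 21629 CPM, from 1547, 2713, 519 and 375 cells. Both conventional dendritic classes were thus above B cells in every library, and the type 1 class was above the type 2 class in all but eHCC WT.

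Plasmacytoid dendritic cells had a summed level of 9064, 10450, 8189 and 11897 CPM, from 140, 143, 88 and 61 cells. Ccr7 mature dendritic cells had 9047, 20361, 19999 and 25400 CPM, from 22, 20, 119 and 40 cells, and in the eHCC KO library 80 of them were in a cluster of low UMI counts. Kupffer cells, the resident macrophages of liver sinusoids, reached the 20 cells needed for a level only in the premalignant libraries, with 8299 CPM from 29 cells and 9572 CPM from 306 cells. Other macrophages had 36536, 32914 and 24587 CPM in premalignant WT, eHCC KO and eHCC WT, from 21, 52 and 2320 cells. Kupffer cells were therefore below B cells and below the other macrophages, and nearer to plasmacytoid dendritic cells.

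The spread within a class was as different as its mean. After each cell was thinned to 1000 UMIs, the median B cell held 22, 25, 26 and 22 UMIs of the 4 summed genes, and 97.8%, 98.3%, 98.6% and 97.3% of B cells held 10 or more. Type 1 conventional dendritic cells held a median of 39, 42, 47 and 38 UMIs on the same scale. Plasmacytoid dendritic cells held a median of 8, 10, 7 and 10 UMIs, with 41.4%, 51.0%, 41.4% and 50.8% of cells at 10 or more. Phagocytes, here all monocytes, non-Kupffer macrophages and clusters like them, were the least even: the median was 0, 1, 2 and 15 UMIs, and 24.0%, 26.0%, 38.0% and 56.9% held 10 or more. B cells were thus nearly all positive, while phagocytes were a mixture of cells with and without class II RNA.

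**Figure D1:**
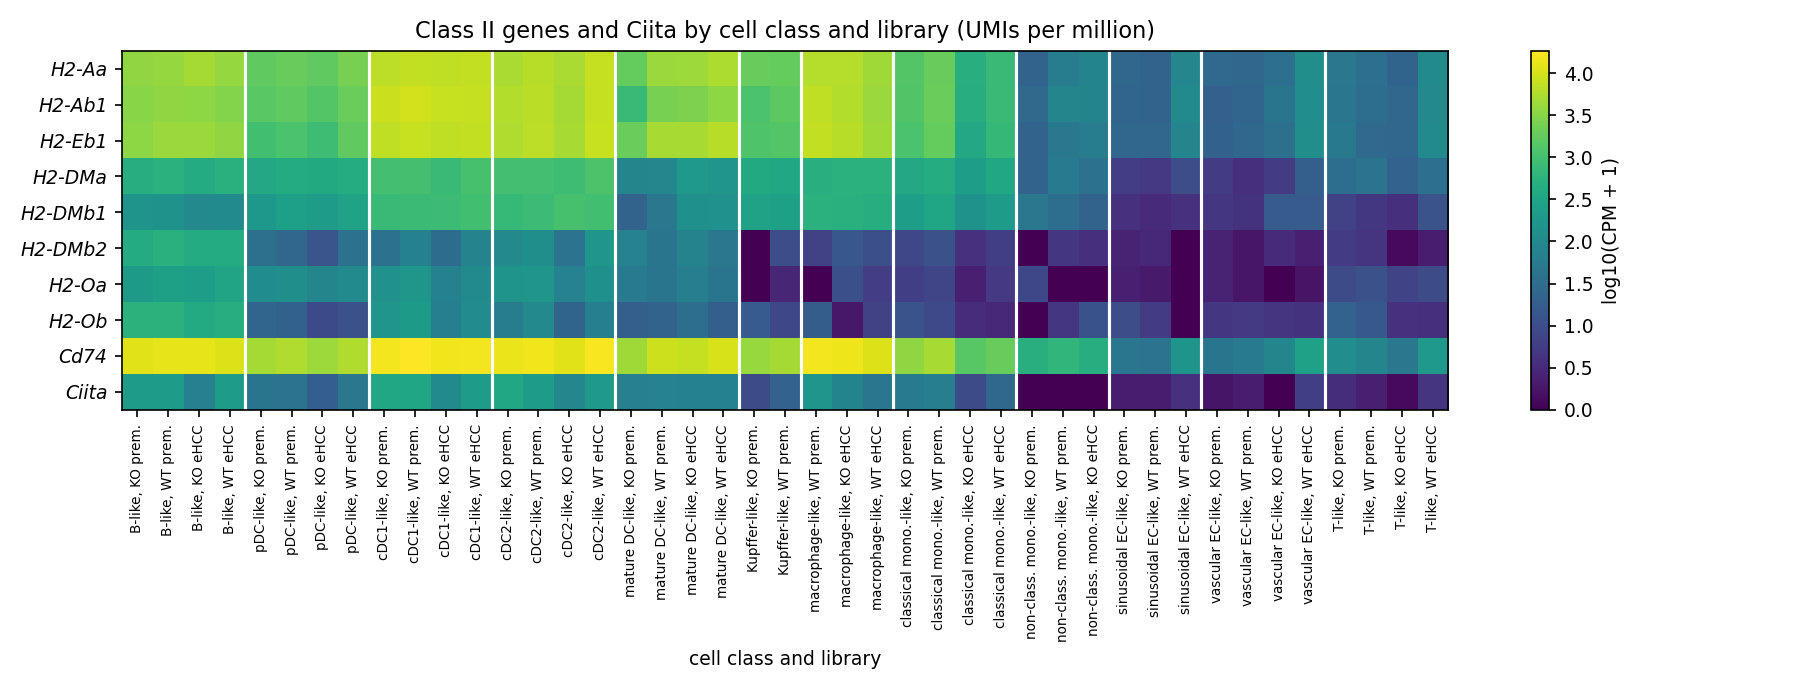
Heat map of the 10 genes (rows) in each cell class and library (columns), coloured by the log10 of CPM plus 1, with white lines between classes. The chain genes and Cd74 are brightest in conventional dendritic cells, macrophages and B cells, and H2-DMb2, H2-Oa and H2-Ob are brightest in B cells. Sinusoidal, vascular and T cells are darker than B cells for all 10 genes.

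The peptide-binding chains differed in their proportions between classes. H2-Aa stood at 3589, 3973, 4894 and 3947 CPM in B cells, at 7025, 7600.5, 7235 and 7609 CPM in type 1 conventional dendritic cells and at 1696, 1916, 1656 and 2494 CPM in plasmacytoid dendritic cells. H2-Ab1 stood at 3271, 3607, 3533.5 and 3014 CPM in B cells and at 8347, 9510, 8239 and 7920 CPM in type 1 conventional dendritic cells. B cells therefore had more H2-Aa than H2-Ab1 RNA in all 4 libraries, and type 1 conventional dendritic cells had the opposite order in all 4. H2-Eb1 followed H2-Aa less closely in plasmacytoid dendritic cells, with 55.5, 59.3, 51.7 and 67.7 UMIs for every 100 of H2-Aa. In Ccr7 mature dendritic cells H2-Ab1 fell short of H2-Aa most, with 43.6, 58.0, 60.4 and 64.4 UMIs for every 100 of H2-Aa.

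Cd74 was the most abundant of the 10 genes in every class above. Its level was 11715, 12971, 12657 and 11124 CPM in B cells, 15779, 18449, 14877 and 15764 CPM in type 1 conventional dendritic cells and 4928, 5696, 4363 and 5795 CPM in plasmacytoid dendritic cells. For every 100 UMIs of H2-Aa there were 326, 327, 259 and 282 UMIs of Cd74 in B cells and 225, 243, 206 and 207 in type 1 conventional dendritic cells. The B cell proportion was the higher one in each library.

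H2-DMa, the alpha chain of H2-M, was at 460.5, 533, 427.5 and 503 CPM in B cells and at 369, 423, 393 and 438 CPM in plasmacytoid dendritic cells, which were nearly level although their chains were far lower. Type 1 conventional dendritic cells had 975, 999, 778 and 1060 CPM. Relative to its substrate, H2-DMa had 12.8, 13.4, 8.74 and 12.75 UMIs for every 100 of H2-Aa in B cells and 21.7, 22.1, 23.7 and 17.6 in plasmacytoid dendritic cells. Ccr7 mature dendritic cells had the least, at 4.75, 2.26, 4.30 and 3.12 for every 100. The exchange factor was thus not in fixed proportion to the chains it acts on.

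The beta chain of H2-M came from a different gene in B cells than elsewhere. In B cells H2-DMb2 was at 423, 516, 424 and 423 CPM and H2-DMb1 at 160, 156, 103 and 110 CPM, so that there were 264, 330, 413 and 385 UMIs of H2-DMb2 for every 100 of H2-DMb1. In type 1 conventional dendritic cells H2-DMb2 was at 39.3, 72.5, 31.8 and 79.3 CPM and H2-DMb1 at 747, 801, 856 and 936 CPM, or 5.26, 9.06, 3.72 and 8.47 for every 100. Plasmacytoid dendritic cells had 19.7, 9.47, 5.56 and 13.3 UMIs of H2-DMb2 for every 100 of H2-DMb1, and type 2 conventional dendritic cells 14.0, 15.6, 3.83 and 18.7. The order of the paralogs was the same in all 4 libraries within each of these classes and opposite between B cells and the rest. Macrophages had 1.10, 2.67 and 2.24 for every 100 in the 3 libraries with enough cells. In Ccr7 mature dendritic cells the order was not settled: premalignant KO had 21 UMIs of H2-DMb2 and 6 of H2-DMb1 from 22 cells, premalignant WT 8 and 9 from 20 cells, eHCC KO 35 and 61, and eHCC WT 19 and 55. The paralogs share sequence, and the exchange of reads between them was not tested.

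**Figure D2:**
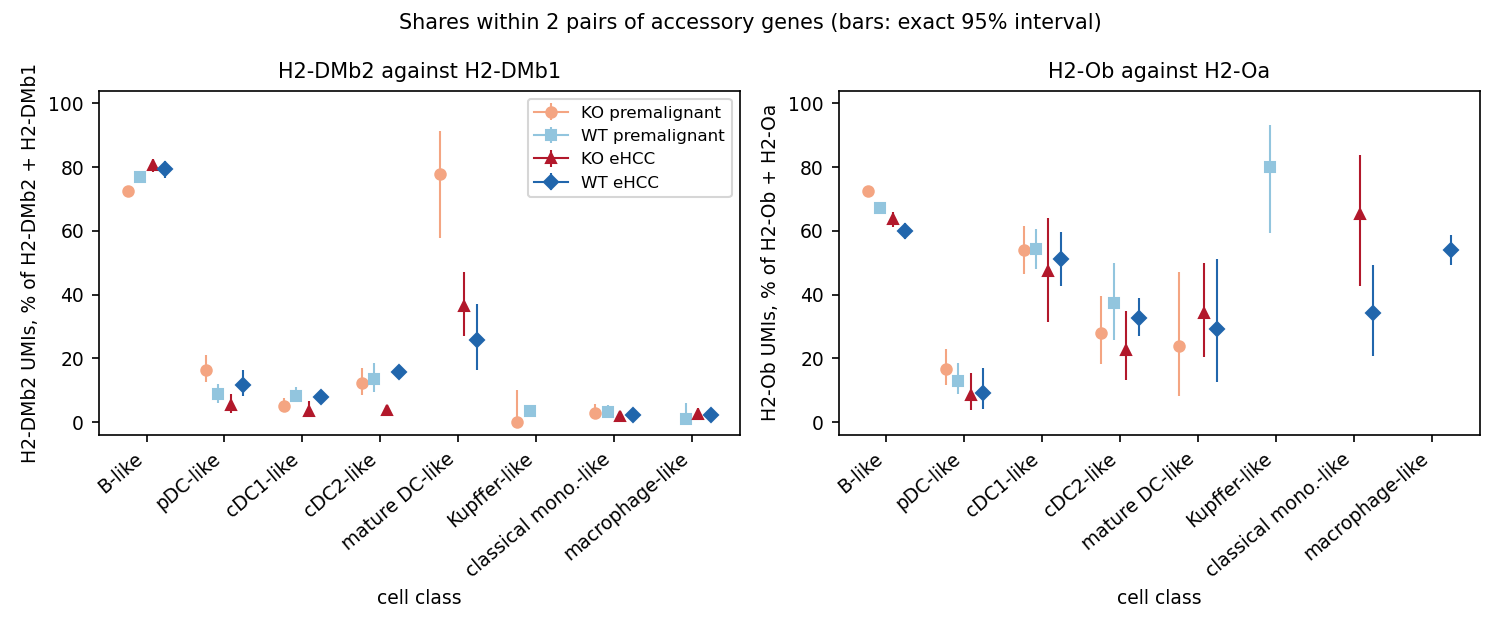
Share of H2-DMb2 in the UMIs of H2-DMb2 and H2-DMb1 (left) and of H2-Ob in those of H2-Ob and H2-Oa (right), in percent, by cell class, with 1 point per library and exact 95% intervals. H2-DMb2 is 72.5% or more in B cells in every library and far lower in plasmacytoid and conventional dendritic cells, and H2-Ob is lowest in plasmacytoid dendritic cells.

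H2-O was mostly B cell RNA in the premalignant libraries, with 82.5% and 86.2% of all H2-Ob and 72.1% and 80.1% of all H2-Oa UMIs in B cells. H2-Ob, its beta chain, was at 559, 543, 407 and 462 CPM in B cells, 23.5, 19.8, 8.0 and 10.3 CPM in plasmacytoid dendritic cells and 164, 212, 67.2 and 112 CPM in type 1 conventional dendritic cells. H2-Oa, its alpha chain, was at 213, 265, 232 and 308 CPM in B cells, 117, 132, 87.8 and 104 CPM in plasmacytoid dendritic cells and 140, 178, 74.3 and 107 CPM in type 1 conventional dendritic cells. Plasmacytoid dendritic cells thus had the alpha chain at a level near that of type 1 dendritic cells with little of the beta chain. In numbers, B cells held 263, 205, 175 and 150 UMIs of H2-Ob for every 100 of H2-Oa, and plasmacytoid dendritic cells 20, 14.9, 9.09 and 9.88. In phagocytes both chains were low, H2-Oa at 4.9, 4.9, 3.8 and 4.6 CPM and H2-Ob at 10.6, 7.9, 3.1 and 4.8 CPM. T cells, which should lack H2-O, had H2-Ob at 20.8, 14.1, 3.0 and 2.9 CPM. The phagocyte H2-Ob level was not above this background in the premalignant libraries. In eHCC KO it was about level with it, at 3.1 against 3.0 CPM. The plasmacytoid H2-Ob level was only a little above the T cell level in premalignant KO, at 23.5 against 20.8 CPM, and the part of free RNA was not tested.

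Ciita RNA was much rarer than that of its targets. It was at 223, 214, 71.9 and 229 CPM in B cells, 349, 333, 106 and 230 CPM in type 1 conventional dendritic cells, 355, 223, 95.0 and 204 CPM in type 2 conventional dendritic cells and 44.6, 41.0, 17.7 and 50.2 CPM in plasmacytoid dendritic cells. In all 4 of these classes the eHCC KO library had the lowest value. Kupffer cells had 8.3 and 21.1 CPM in the premalignant libraries, from 1 and 58 UMIs, with class II chains near the plasmacytoid level. Other macrophages had 173, 83.2 and 46.1 CPM in premalignant WT, eHCC KO and eHCC WT. Ccr7 mature dendritic cells had 70.3, 77.7, 74.3 and 73.0 CPM, a range far narrower than that of their chains. T cells had 2.6, 1.4, 0.29 and 3.6 CPM.

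The cells that held most of the class II RNA were not the same in the 4 libraries. B cells held 65.4%, 63.1%, 23.7% and 3.1% of all Cd74 UMIs of kept cells, and phagocytes 5.1%, 4.4%, 53.6% and 80.7%. For Ciita the B cell share was 67.0%, 69.4%, 23.5% and 10.5%, and the phagocyte share 5.1%, 3.6%, 48.8% and 64.2%. H2-DMb2 stayed largely in B cells, with 89.97%, 91.4%, 83.5% and 41.2% of its UMIs there. A level over a whole library therefore followed the cell makeup: H2-Ob over all kept cells was at 97.8, 79.3, 18.3 and 13.7 CPM, while its level within B cells moved by far less.

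Whether the libraries labelled KO and WT differed was first asked in premalignant liver. In B cells the class II genes were nearly level between them. H2-Aa was lower by 0.15 in the KO library on the log2 scale (log2 ratio -0.15, interval -0.17 to -0.12), Cd74 by the same amount (-0.15, interval -0.16 to -0.13), and Ciita had a log2 ratio of 0.06 (interval -0.04 to 0.15, from 1518 and 2264 UMIs). None of the 10 genes was past 1.5-fold lower, against 8.17% of all genes tested in B cells, and none was past 1.5-fold higher, against 13.8%. H2-Oa and H2-DMb2 were the furthest from 0, at -0.32 and -0.29.

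Few genes of the other premalignant classes were past the threshold. In classical monocytes of the KO library 8 of 9 measured genes were below 0, with a summed log2 ratio of -0.53 (interval -0.57 to -0.49), and 2 of 9 were past the threshold lower, H2-Ab1 at -0.60 and H2-Eb1 at -0.69, against 8.46% of all genes. Both turned to the other sign with the top share of doublets removed in every library, at 0.38 and 0.60. In plasmacytoid dendritic cells the summed log2 ratio was -0.21, and 1 of 10 genes was past the threshold higher, H2-DMb2 at 0.61 with an interval of -0.06 to 1.30 from 49 and 32 UMIs, against 11.1% of all genes. In phagocytes the summed log2 ratio was -0.43, and 1 of 9 measured genes was past it lower, H2-DMb2 at -0.70 from 8 and 15 UMIs, against 8.27% of all genes. The summed phagocyte value ran from -0.77 to 0.62 over the alternatives, so its sign depends on how the cells were processed. In sinusoidal endothelial cells 1 of 10 genes was past it higher, H2-Ob at 0.98 (interval 0.62 to 1.34, from 118 and 146 UMIs), against 5.35% of all genes. T cells of the KO library also had more H2-Ob, at 20.8 against 14.1 CPM, and the part of free RNA in the endothelial value was not tested. Over all classes with a ratio, leaving out the pooled phagocytes, 4 of 43 values were past 1.5-fold, against 16.4% of all genes, and 2 of the 4 were those of monocytes.

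In eHCC the B cells of the KO library had little Ciita RNA, while H2-Aa, H2-Ab1, H2-Eb1 and Cd74 were not lower. Ciita was at 71.9 CPM (interval 62.0 to 82.9, from 190 UMIs) against 229 CPM (interval 207.5 to 252, from 419 UMIs) in the WT library, a log2 ratio of -1.67 (interval -1.93 to -1.42). Both premalignant values were close to that of eHCC WT, so the eHCC KO library is the single low one. In the same cells H2-Aa, H2-Ab1, H2-Eb1 and Cd74 were higher in the KO library, with log2 ratios of 0.31, 0.23, 0.23 and 0.19, and their sum had a log2 ratio of 0.22 (interval 0.20 to 0.24). Ciita was past the threshold lower, 1 of 10 genes against 18.3% of all genes tested, and none was past it higher, against 8.02%. Of all genes, 1.98% of 8367 had a ratio as low as that of Ciita or lower. H2-DMa, H2-DMb1, H2-DMb2, H2-Oa and H2-Ob were at -0.24, -0.10, 0.00, -0.41 and -0.18.

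The low B cell Ciita value held over the alternatives and by share of cells. Over 11 alternatives its log2 ratio ran from -1.69 to -1.35. A Ciita UMI was seen in 54.4%, 51.6%, 27.6% and 55.2% of B cells, with median depths of 3799, 3480, 4881 and 4574 UMIs, so the library with the lowest share was the deepest. After thinning to 1000 UMIs per cell the shares were 19.2%, 20.01%, 5.81% and 17.7%. T cells, as a background, had a Ciita UMI in 1.18%, 0.588%, 0.187% and 1.90% of cells. For every 100 UMIs of H2-Aa there were 6.21, 5.40, 1.47 and 5.80 of Ciita in B cells.

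**Figure D3:**
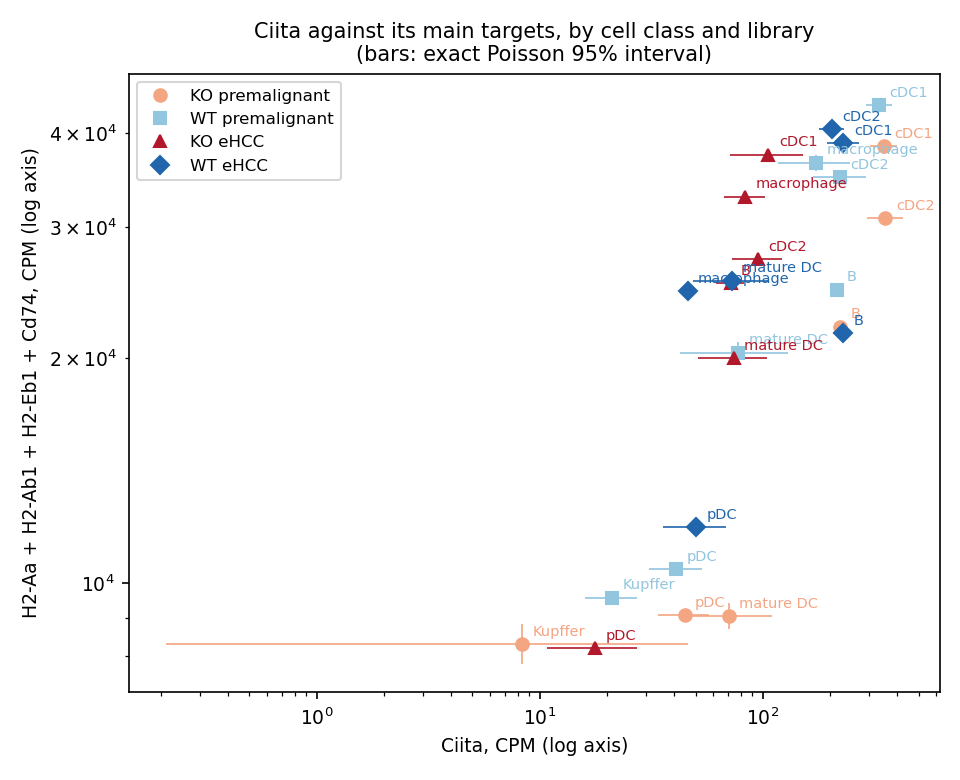
Summed H2-Aa, H2-Ab1, H2-Eb1 and Cd74 level (vertical) against the Ciita level (horizontal), both in CPM on log axes, with 1 labelled point per cell class and library and exact Poisson 95% intervals. The eHCC KO point of B cells lies left of the other B cell points, at 71.9 CPM of Ciita against 214 to 229 CPM, at about the same height.

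The B cells of the eHCC KO library came from a cluster of their own. Of its 519 B cells, 502 were in cluster 19, led by Ebf1, Fcmr and Pou2af1, whereas the other libraries had 5, 15 and 13 cells there and 1540, 2670 and 362 cells in cluster 0. The few cells in the minority cluster can be set beside them: the 17 eHCC KO cells in cluster 0 had Ciita at 43.2 CPM (interval 11.8 to 111), and the 13 eHCC WT cells in cluster 19 had 219 CPM (interval 120 to 367). The 15 premalignant WT cells in cluster 19 had 59.5 CPM (interval 21.9 to 130). The eHCC KO cells of cluster 19 had 72.9 CPM (interval 62.8 to 84.2). The eHCC WT cells of cluster 0 had 229 CPM (interval 207.5 to 253). Ciita was thus lower in eHCC KO than in eHCC WT within either cluster, from only 4 UMIs in the 17 cells and 14 in the 13. Premalignant WT cells of cluster 0 had 216 CPM, above those of cluster 19. The parts of cluster and library were not tested. Erythroid markers, summed, were at 448, 3210, 20099 and 1801 CPM in B cells and at 36.8, 139, 2190 and 187 CPM in T cells, so they were highest in the library with low Ciita. Macrophage markers in B cells were at 339, 635, 508 and 2394 CPM. The part of the erythroid RNA in the Ciita value was not tested.

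Against the premalignant KO library, the same B cells had Ciita lower by 1.63 on the log2 scale (log2 ratio -1.63, interval -1.86 to -1.42), while H2-Aa was at 0.45, H2-Eb1 at 0.25, H2-Ab1 at 0.11 and Cd74 at 0.11. In that comparison 2 of 10 genes were past the threshold lower, Ciita and H2-DMb1 (-0.64), against 46.9% of all genes, whose median log2 ratio was -0.53. The Ciita ratio was as low or lower in 9.03% of genes, and over 11 alternatives it ran from -1.86 to -1.10. The summed chain level, at 0.19, was therefore above the median of all genes and Ciita below it. Between the WT libraries none of the 10 B cell genes was past the threshold lower, against 24.1% of all genes, and Ciita had a log2 ratio of 0.10 (interval -0.06 to 0.25).

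The factors that assemble on the class II promoter and those that switch Ciita on or off were listed as fixed sets. Of 10 genes of the promoter complex in B cells of eHCC, none was past the threshold lower in KO against WT, with a median log2 ratio of -0.03 against -0.11 for all genes. The RFX subunits Rfx5, Rfxap and Rfxank were at -0.20, -0.01 and -0.04. Of 12 measured genes that switch Ciita, 3 were past it lower, against 18.3% of all genes: Irf4, a factor of activated B cells, at 71.5 against 137 CPM (-0.94), Usf1, which binds a Ciita promoter, at -0.76, and Ifngr2, a chain of the interferon-gamma receptor, at -1.41. Pax5, the factor of B cell identity, was at -0.05, Spi1 at -0.17 and Irf8 at -0.39. March1, the ligase that marks class II for degradation, was at 232, 212, 63.2 and 152 CPM in B cells, a log2 ratio of -1.27 in eHCC, so it too was lowest in the eHCC KO library. H2-Eb2, a class II beta chain gene outside the 10, was at 48.5, 51.0, 51.5 and 82.5 CPM in B cells, and in eHCC it was past the threshold lower in the KO library, at -0.68 (interval -1.03 to -0.34).

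Plasmacytoid dendritic cells of eHCC had less RNA of several class II genes in the KO library. All 9 measured genes had a log2 ratio below 0, and 4 were past the threshold, against 13.8% of all genes. H2-Aa was at -0.59, H2-Eb1 at -0.98 (interval -1.10 to -0.86), H2-DMb2 at -1.64 (interval -2.67 to -0.68, from 14 and 30 UMIs) and Ciita at -1.50 (interval -2.36 to -0.69, from 20 and 39 UMIs). H2-Ab1, at -0.55, Cd74 at -0.41, H2-DMb1 at -0.38, H2-Oa at -0.25 and H2-DMa at -0.16 were nearer to 0, and the intervals of H2-Oa (-0.69 to 0.19) and H2-DMa (-0.36 to 0.05) covered 0. The summed log2 ratio was -0.54 (interval -0.58 to -0.50) and ran from -0.61 to -0.33 over the alternatives, and that of H2-Eb1 from -1.02 to -0.54, which is inside 1.5-fold. Of all genes, 2.75% of 7064 had a ratio as low as that of Ciita. So here Ciita and the chain genes were low together, whereas in B cells the chain genes were higher; the classes were not tested against each other. Macrophage markers in these cells were summed at 223, 373, 182 and 8521 CPM and erythroid markers at 33.3, 4556, 10678 and 100.5 CPM. The part of either in the class II difference was not tested.

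Against premalignant KO, the plasmacytoid cells of eHCC KO had 3 of 10 genes past the threshold lower, against 27.8% of all genes. They were H2-DMb2 at -1.58, H2-Ob at -1.56 and Ciita at -1.33 (interval -2.14 to -0.58), and Ciita ran from -1.44 to -1.11 over 10 alternatives. H2-Ob was close to the T cell level in premalignant KO, and with that level subtracted its ratio had the other sign. The summed log2 ratio was -0.15. Between the WT libraries the summed log2 ratio was 0.19 and that of Ciita was 0.29 (interval -0.34 to 0.91). In conventional dendritic cells the cell numbers were below the 50 needed for a ratio in at least 1 library of each pair, and only the levels above are given.

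**Figure D4:**
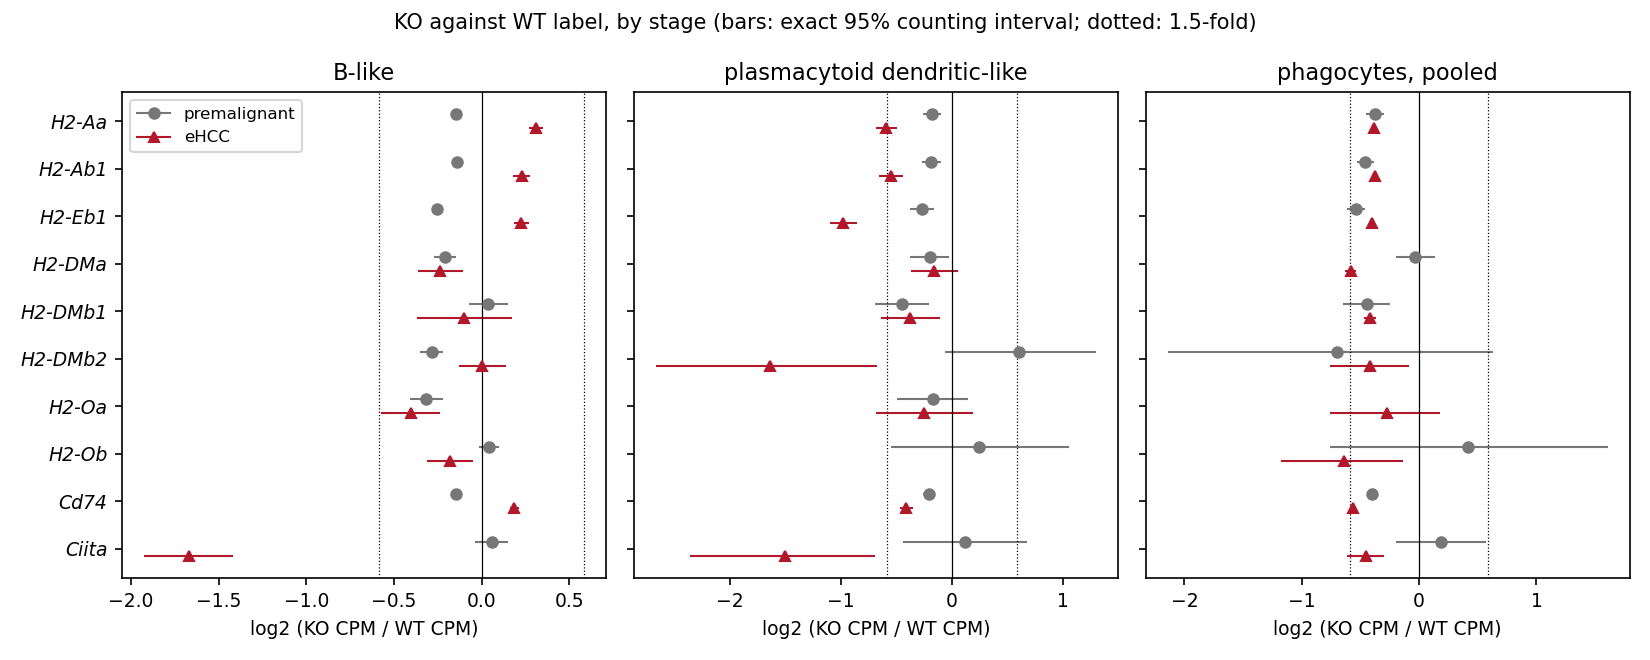
log2 ratio of CPM between the libraries labelled KO and WT for the 10 genes (rows) in B cells, plasmacytoid dendritic cells and pooled phagocytes (panels), in premalignant liver (grey) and eHCC (red), with exact 95% counting intervals and dotted lines at 1.5-fold. In eHCC the chain genes and Cd74 lie right of 0 in B cells with Ciita far left at -1.67, and every measured gene lies left of 0 in the other panels.

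Phagocytes of eHCC, pooled, had lower levels of all 10 genes in the KO library, though the interval of H2-Oa (-0.76 to 0.18) covered 0. The median log2 ratio of all genes was -0.07. Cd74 was at 4423, 5838, 6297 and 9295 CPM in phagocytes and H2-Aa at 1717, 2227, 2898 and 3783 CPM. The eHCC WT library was highest for both. In KO against WT, H2-Aa was at -0.38, H2-Ab1 at -0.37, H2-Eb1 at -0.40, Cd74 at -0.56, H2-DMa at -0.58 and Ciita at -0.45, and 10 of 10 were below 0, but 1 of 10 was past the threshold lower, H2-Ob at -0.64, against 22.7% of all genes. H2-Ob in the eHCC KO phagocytes was at 3.1 CPM, from 37 UMIs, about the level of T cells. The summed log2 ratio was -0.46 and ran from -1.498 to -0.39 over the alternatives. In 27.9% of genes the ratio was as low as that of Ciita or lower.

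The pooled value mixed cells with and without class II. In the eHCC WT library Cd74 was at 15219 CPM in cluster 104, led by Mmp12, at 13851 and 13460 CPM in clusters 114 and 115, led by Fcrls and Tmem119, at 5591 CPM in cluster 118, led by Gpnmb and Spp1, and at 872 CPM in cluster 117, monocytes led by Saa3 and Chil3. In eHCC KO, Cd74 was at 13991 CPM in cluster 104, 11000 CPM in cluster 107 and 1426 CPM in cluster 102, classical monocytes led by Plac8. Within cluster 104, the named macrophage cluster with most eHCC KO cells, Cd74 was thus close between the libraries. The summed level there was lower in KO, at 31363 CPM against 37287 CPM in WT. Ciita there was at 76.1 CPM in KO and 113 CPM in WT. Of the 2320 macrophages of eHCC WT most were in clusters 114, 115, 118 and 121, which held few eHCC KO cells, while 38 of the 52 macrophages of eHCC KO were in cluster 104.

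In the named macrophages, which come from those different clusters, the direction was the opposite of the pool. H2-Aa was at 6225.5 CPM in KO and 4508 CPM in WT (0.47), Cd74 at 14447 and 11185 CPM (0.37) and Ciita at 83.2 and 46.1 CPM (0.85, interval 0.53 to 1.15, from 92 and 1873 UMIs). With H2-Oa, at 1.01 from 11 and 201 UMIs, 2 of 10 genes were past the threshold higher, against 22.1% of all genes, while H2-Ob had 1 UMI in KO and 236 in WT. Classical monocytes went the other way: Cd74 was at 3659, 5028, 1448 and 1885 CPM, H2-Aa at 1339, 1909, 484 and 787 CPM and Ciita at 58.7, 65.1, 8.4 and 26.6 CPM. In KO against WT of eHCC, 6 of 10 monocyte genes were past the threshold lower, against 18.7% of all genes, with Ciita at -1.66 and the sum at -0.58. The direction of the monocyte chains did not hold with separate clustering of each library, where H2-Aa had a log2 ratio of 1.97. Most monocytes were in cluster 102 in eHCC KO and in cluster 117 in eHCC WT. Within cluster 102, Cd74 was at 1426 CPM in 445 eHCC KO cells and 4508 CPM in 54 eHCC WT cells, and Ciita at 8.4 and 62.7 CPM.

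Between tumour and premalignant liver the classical monocytes of both labels had less class II RNA, but they came from different clusters. Under the KO label 9 of 9 measured genes were past the threshold lower, against 23.7% of all genes, with a summed log2 ratio of -1.42 and Ciita at -2.80. Under the WT label 8 of 10 were, against 17.3% of all genes, with a summed log2 ratio of -1.37 and Ciita at -1.29. Premalignant monocytes were mostly in cluster 101, with 112 KO and 101 WT cells, and eHCC monocytes in cluster 102 (445 KO cells) or cluster 117 (370 WT cells, none from another library). Within cluster 101 the WT libraries had the opposite order, with a summed level of 15813 CPM in 83 eHCC cells against 10295 CPM in premalignant liver. Within cluster 102 the WT sum was 9675 CPM in 54 eHCC cells against 12164 CPM in 25 premalignant cells, while cluster 117 was at 1810 CPM. The pooled phagocytes had the opposite sign for the sum, 0.65 under the KO label and 0.68 under the WT label, with Ciita at -1.30 and -0.66. Named macrophages were 2320 of 3524 phagocytes in eHCC WT, 52 of 973 in eHCC KO and 21 of 209 in premalignant WT. With the top share of doublets removed in every library the KO sum was -0.34. Over all classes but the pooled phagocytes, 19 of 45 values were past 1.5-fold between KO and WT in eHCC, 17 of them lower, against 29.8% of all genes. Between stages 17 of 33 were past it under the KO label, 14 lower and 3 higher, against 42.2% of all genes, and 16 of 37 under the WT label, 9 lower and 7 higher, against 32.9%. Centred on the median of all genes, the KO stage split was 11 lower and 9 higher of 20, and the share of all genes was not computed with this centring.

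Endothelial cells had class II RNA at or near the level of T cells, which do not express it in mice. In sinusoidal endothelial cells, from 2256, 4346 and 22 cells of premalignant KO, premalignant WT and eHCC WT, Cd74 was at 47.1, 40.9 and 158 CPM. T cells had Cd74 at 123, 85.2, 49.1 and 198 CPM. Sinusoidal Cd74 was thus below that of T cells in each of the 3 libraries. No sinusoidal cell held 10 or more UMIs of the 4 summed genes after thinning to 1000 UMIs, in 2209 and 4273 premalignant cells, which allows shares of up to 0.167% and 0.086%. Ciita was at 1.1, 1.1 and 3.1 CPM in sinusoidal cells.

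Vascular endothelial cells were above T cells only in eHCC, and there still below NK cells. Their summed level was 111, 133, 204 and 655 CPM, against 269, 182, 121 and 514 CPM in T cells, 308, 363.5, 328 and 852 CPM in NK cells and 1645, 1650, 125 and 885 CPM in neutrophils. H2-Aa was at 27.3, 24.8, 34.9 and 128 CPM in vascular cells, from 159, 246, 61 and 193 cells, and at 47.7, 34.9, 22.5 and 105 CPM in T cells. Cd74 was at 43.9, 59.4, 89.0 and 280 CPM in vascular cells. The vascular Cd74 level was below that of T cells in both premalignant libraries and above it in both eHCC libraries. Ciita was at 0.76, 1.18, 0 and 5.27 CPM in vascular cells, from 1, 3, 0 and 15 UMIs, where a count of 0 allows up to 3.38 CPM, and T cells had 2.6, 1.4, 0.29 and 3.6 CPM. After thinning, 0, 0, 0 and 2 of 179 vascular cells held 10 or more UMIs of the 4 summed genes.

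In vascular cells of eHCC, 5 of 6 measured genes were past the threshold lower in KO against WT, against 17.0% of all genes. The log2 ratio was -1.88 for H2-Aa (interval -2.45 to -1.35), -1.48 for H2-Ab1, -1.79 for H2-Eb1, -1.65 for Cd74 and -2.05 for H2-DMa, and 0.00 for H2-DMb1. The sum had a log2 ratio of -1.69 (interval -1.91 to -1.46) in vascular cells. The same sum had a log2 ratio of -2.09 in T cells (interval -2.14 to -2.04), -1.38 in NK cells and -2.82 in neutrophils. These classes, which should hold little class II RNA, thus differed in the same direction as vascular cells, with the vascular value between those of NK and T cells. With the T cell level subtracted the vascular log2 ratio was -0.76. It was -2.19 with the top cell left out, taken for each gene and library separately.

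Between stages under the WT label, 6 of 7 measured vascular genes were past the threshold higher in eHCC, against 15.6% of all genes, with H2-Aa at 2.37, H2-DMa at 2.76, Cd74 at 2.24 and the sum at 2.30 (interval 2.13 to 2.47). The same sum was at 1.497 in T cells, 1.23 in NK cells and -0.90 in neutrophils. Under the KO label the vascular sum was at 0.87, and 0.29 without the top cell of each gene. Premalignant vascular cells were mostly in cluster 202, led by Rspo3 and Wnt9b, and eHCC vascular cells in cluster 209, led by Igfbp3 and Esm1. Macrophage markers in vascular cells were summed at 2927, 3410, 1209 and 2188 CPM and B cell markers at 56.0, 22.4, 151 and 73.7 CPM. Their part in the class II level was not tested. An unnamed endothelial cluster with both vascular and plasma cell markers had H2-Aa at 1072 and 796 CPM and Cd74 at 2406 and 2205 CPM in premalignant KO and WT, from 23 and 86 cells, and its B cell markers were at 657 and 436 CPM.

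**Figure D5:**
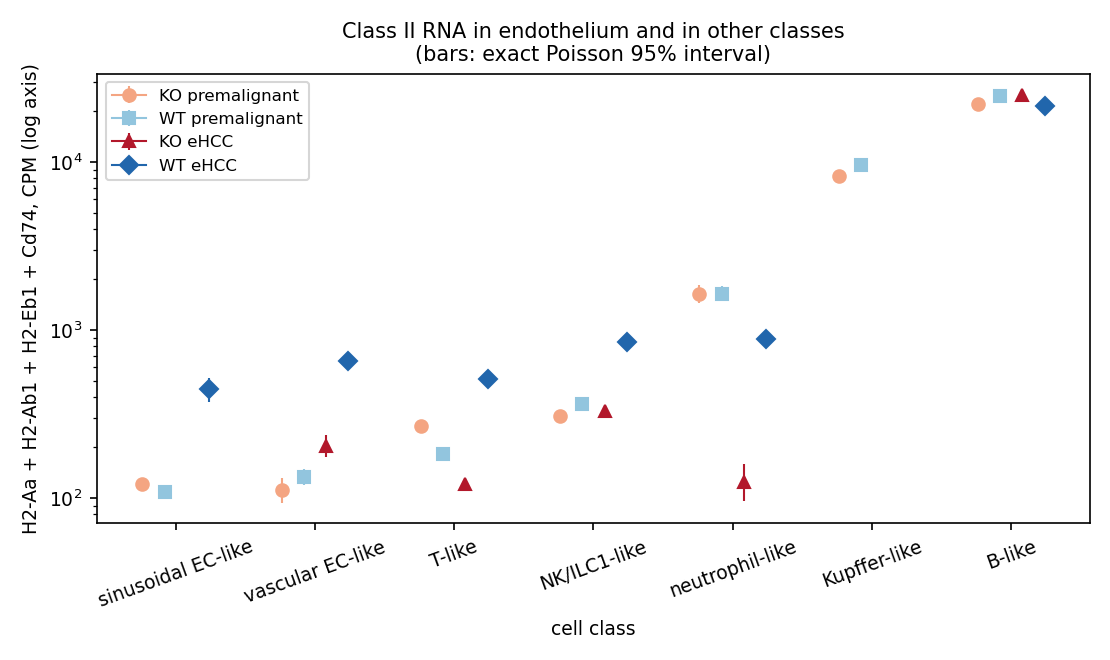
Summed H2-Aa, H2-Ab1, H2-Eb1 and Cd74 level in CPM, on a log axis, in endothelial, T, NK, neutrophil, Kupffer and B cells, with 1 point per library and exact Poisson 95% intervals. Sinusoidal cells lie below T cells in the same library, and in sinusoidal, vascular, T and NK cells alike the eHCC WT library is the highest.

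Genes that interferon-gamma induces, and class I genes, were higher in the phagocytes and vascular cells of eHCC KO than of eHCC WT. Of 10 GTPases and chemokines on the list, 9 were past the threshold higher in phagocytes of eHCC KO against eHCC WT, with a median log2 ratio of 2.13, against 14.5% of all genes and a median of -0.07. Gbp2, a guanylate-binding GTPase, was at 179 against 23.1 CPM and Cxcl9, a chemokine for T cells, at 314 against 69.7 CPM. Of 6 class I genes 6 were past it higher, with a median of 1.14, H2-K1 at 1948 against 903 CPM and Tap1, the peptide transporter, at a log2 ratio of 1.66. In vascular cells 10 of 10 and 5 of 6 were, with medians of 1.01 and 1.58, against 11.2% of all genes. In B cells none of 6 class I genes was past it higher, against 8.02% of all genes, or lower, with a median of 0.23, close to the 0.22 of their class II sum. In named macrophages 6 of 6 class I genes and 8 of 10 interferon-gamma-induced genes were past it higher, against 22.1% of all genes, with medians of 1.02 and 1.17, and the class II sum was at 0.42. The class II sum was at -0.46 in the pooled phagocytes and at -1.69 in vascular cells, where T cells, NK cells and neutrophils had ratios below 0 too. From premalignant liver to eHCC, 9 of 10 interferon-gamma-induced genes were past 1.5-fold lower in WT phagocytes, against 29.3% of all genes. Their median was -1.803 with 1 higher, and 5 of 6 class I genes were lower. In KO phagocytes 3 and 1 were past it higher and 1 and 1 lower, with medians of 0.46 and 0.29. In vascular cells the medians were -0.02 and -0.84 under the WT label and 1.07 and 0.52 under the KO label. In phagocytes the WT label thus had the larger change.

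The regulators and processing enzymes of class II in phagocytes were mixed. Among the genes that switch Ciita, Irf1, which binds an inducible Ciita promoter, was at 101 against 33.8 CPM in eHCC KO against eHCC WT phagocytes (1.57) and Socs1 at a log2 ratio of 0.94. Of 7 enzymes that cleave the invariant chain and antigen, 3 were past it lower, against 22.7% of all genes: Ctsd at 676 against 2290 CPM (-1.76), Ctss, which makes the last cut of the invariant chain in most presenting cells, at 2252 against 3620 CPM (-0.68), and Ctsl at -0.66. Sppl2a, which clears the remaining stub of the invariant chain, was at 0.67. The median of the 7 was -0.58 in this pool, which mixed different clusters in the 2 libraries. In named macrophages none of the 7 was past it lower and 2 were higher, against 22.1% of all genes, with a median of 0.21. In classical monocytes 3 of 7 were lower, against 18.7% of all genes, with a median of -0.13. In the pooled phagocytes March1 was at -0.83 and Cd83, its antagonist, at 0.63. Of 6 genes of costimulation and its inhibition 4 were past it higher there, against 14.5% of all genes. Cd40 was at 2.16, Cd80 at 0.89 and Cd274, an inhibitory ligand of PD-1, at 2.30, while Icosl was at -1.98. In B cells 3 of 5 measured genes of that list were past it lower, against 18.3% of all genes, Cd40 at -0.72, Icosl at -1.05 and the inhibitory Cd274 at -0.62.

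Genes outside the 10 were ranked by how closely they followed the summed level over 44 points of class and library, on log2 of CPM plus 5. The points share libraries, depth and free RNA, so the correlation is a description. The nearest were Ly86 (r 0.918), a partner of the receptor RP105, Pkib (0.918), an inhibitor of protein kinase A, Fgd2 (0.893), March1 (0.844), Ctsh (0.819), a cathepsin, Wdfy4 (0.809), B3gnt8 (0.806), Ctss (0.805), Irf5 (0.797) and Gm6377 (0.797). Wdfy4 was also a marker used to name type 1 conventional dendritic cells, which gave no point here. Among the class II genes themselves H2-DMa had an r of 0.944, H2-DMb1 0.942 and Ciita 0.925, while H2-DMb2 had 0.760, H2-Oa 0.697 and H2-Ob 0.544. The genes with the B cell pattern were thus the ones furthest from the common one.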

How the data were processed

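The authors deposited, per the file headers, raw UMI count matrices from Cell Ranger 3.0.1, 1 per library; the submitters' processing notes name bcl2fastq 2.20.0 and the builds GRCh38 and mm10. The aligner's settings and the annotation are not given in the sources used. Cells needed 500 UMIs and 300 genes or more, with no more than 25% mitochondrial UMIs, and doublets were removed with scrublet in scanpy 1.11.5 (7.63%, 6.75%, 6.48% and 2.12% of cells). In the eHCC KO library they were the top share of scores, at 0.8% per 1000 cells. Clusters came from 2000 variable genes, without class II genes, 40 components, 15 neighbours and the Leiden method of igraph, called through scanpy, at resolution 1. The rule that named clusters from markers was settled after cell numbers were seen. Levels and ratios were computed from summed counts with scipy 1.17.1 (Poisson, Clopper-Pearson and conditional binomial intervals), and the computation was tested on simulated data. Named genes were the 10 members, the members of 8 fixed lists (56 of 61 symbols found) and the 10 most similar genes. The members and lists were chosen with earlier results of these data known. The alternatives were 10 planned and 1 chosen after seeing the data. 1 gene of these lists is not reported here.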

Additional observations from a re-analysis of the deposited data

Results flagged for a closer look

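In B cells the ratio between the libraries labelled KO and WT had opposite signs in the tumour and in premalignant liver for 4 genes. H2-Aa had a log2 ratio of 0.31 in eHCC and -0.15 in premalignant liver, H2-Ab1 0.23 and -0.14, H2-Eb1 0.23 and -0.26, and Cd74 0.19 and -0.15. None of these ratios was past 1.5-fold. With 1 library in each group the difference between the stages was not tested.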

How the results depend on the processing

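The alternatives kept called doublets, took at most 10% mitochondrial UMIs, averaged CPM per cell, thinned cells to 1000 UMIs, left out the top cell, subtracted the T cell level, centred on all genes, asked for 50 UMIs, clustered at resolution 2 or each library on its own, or, chosen after seeing the data, removed the top share of doublets in every library. The top cell was taken for each gene, class and library separately. No paired analysis was possible because each group has 1 library. Of 2263 alternative values for 219 ratios, 2102 had the direction first given and 161 the opposite one. Of these 161, 136 belonged to ratios inside 1.5-fold and 25 to ratios past it, which are called reversed. Of 76 ratios past 1.5-fold 34 stayed past it under every alternative with a value. In B cells 35 of 484 alternative values changed sign, all of ratios inside 1.5-fold. Also inside it, the summed ratio of premalignant phagocytes went from -0.43 to 0.62 with the top share removed.

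The number of values past 1.5-fold moved under some settings. With each library clustered on its own it was 13 between KO and WT in premalignant liver, 30 in eHCC and 27 between stages under the WT label. With the T cell level subtracted it was 11 in eHCC and 9 between the WT stages, and with thinned cells 9 under either stage comparison. The share over all genes was not computed under these settings, so the counts cannot be read as more or fewer class II changes. For each member, class and library, the interval of the share of cells with a UMI was set against that of T cells. It lay wholly above in 280 of 390 values, 229 of 380 after thinning and 261 of 350 with doublets kept. No such count was made over all genes.

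The 25 reversed ratios, those past 1.5-fold that changed sign, were outside B cells. In classical monocytes H2-Ab1 and H2-Eb1 were at 0.38 and 0.60 in KO against WT of premalignant liver, and H2-Aa, H2-Ab1 and H2-Eb1 at 0.14, 0.11 and 0.0043 in eHCC, with the top share removed. Clustered on its own, eHCC gave H2-Aa 1.97, H2-Ab1 1.87, H2-Eb1 1.94, H2-DMb2 0.51 and Ciita 0.97, and the KO stages gave H2-Eb1 0.19. H2-DMb2 of monocytes was at 0.30 between the KO stages with the T cell level subtracted. Macrophage H2-Oa in eHCC was at -0.34 without the top cell, -0.93 clustered on its own and -1.56 with the top share removed. Plasmacytoid H2-Ob was at 0.91 between KO stages and 0.40 between WT stages with the T cell level subtracted. Phagocytes of the KO stages with the top share removed had H2-Aa at -0.31, H2-Ab1 at -0.33, H2-Eb1 at -0.25 and the sum at -0.34. Phagocytes of the WT stages had H2-Ob at 0.064 and Ciita at 0.61 clustered on their own, and Ciita at 0.54 with the top share removed. Vascular Cd74 between the KO stages was at -0.030 without the top cell. The cause of these moves was not tested. Depth limits the low genes most: ratios from under about 50 UMIs have intervals wider than 1.5-fold either way.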
